A study of Mus musculus with 16 samples.

Results

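RNA was compared between CD31+ cells sorted from whole mouse embryos at embryonic day 9.5 of 2 Notch1 genotypes, 12/− and +/vg, with 3 libraries each, 6 of the 16 libraries of the series. CD31 is a surface protein of endothelial cells. Embryos labelled 12/− had no wild-type Notch1 allele: 1 copy was deleted, and in the other, the 12 allele, the intracellular domain of Notch1 was exchanged for that of Notch2. The labels report endothelial dysfunction in this genotype. Embryos labelled +/vg had 1 wild-type copy and 1 vg copy, in which a valine-to-glycine substitution moves the γ-secretase cut and yields a less stable intracellular domain, and were labelled as normal in endothelial development. The 2 genotypes thus differed in both copies of the gene, and the effect of either allele alone cannot be told apart in this comparison. Further normal genotypes, +/+, +/− and +/12, gave 9 libraries, and a single library came from 12/vg, labelled as partial endothelial dysfunction. How many embryos went into each library is not stated in the labels. The spread behind the p-values is therefore that of libraries, and a technical share in it cannot be separated.

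Notch receptors signal by proteolysis: a ligand on a neighbouring cell leads γ-secretase to free the intracellular domain, which enters the nucleus and switches on target genes with the DNA-binding protein Rbpj. In the embryonic endothelium this pathway is known for arterial specification, for holding back tip cells during sprouting and for endocardial development. Many of the genes described below are known from the response to low oxygen. When oxygen is scarce, prolyl hydroxylases of the Egln family no longer mark the hypoxia-inducible factors (HIF) for destruction, and HIF raises genes of glucose uptake, glycolysis, mitochondrial restraint, collagen modification and vessel growth.

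The compared libraries were of similar depth. Depth was read from the median ratio of deposited coverage to FPKM over transcripts, taken as gigabases aligned. It was between 1.30 and 1.46 in the 12/− libraries and up to 1.80 in the +/vg libraries, each of which was deeper than any of 12/−. Between 10160 and 10522 genes reached 1 FPKM in each library. FPKM is a fragment count set relative to transcript length and library size, and all levels below are FPKM after scaling of the libraries to a common median. Library numbers in the deposited names fell in a low and a high range. All 3 of the 12/− libraries and +/vg replicate 3 had low numbers, while +/vg replicates 1 and 2 had high ones; the labels name no batch. The 32 endothelial markers summed to between 2150 and 2495 FPKM in 12/− and between 1943 and 2062 in +/vg. Erythroid markers, led by embryonic globins, ranged from 89.1 to 348 in 12/− and from 123 to 151 in +/vg, and platelet markers from 445 to 1734 and from 790.4 to 1632. The sums of myeloid, cardiomyocyte, smooth muscle, mesenchyme, neural and endoderm markers lay between 14.1 and 55.9 in these 6 libraries. The macrophage markers C1qa, C1qb and Emr1 were listed at 0 in all 3 +/vg libraries and at 0 to 0.141 in 12/−. Of 12 myeloid members, 7 stayed below 1 FPKM in all +/vg libraries and 6 in all 12/− libraries, while Fcer1g reached 21.9 and 36.4. The part of other cells in the results was not tested. In bulk RNA, fewer cells of a type and less RNA per cell cannot be told apart.

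Of 10550 genes tested, 43 were higher and 4 were lower in 12/− than in +/vg (limma, adjusted p under 0.05), which is 0.408% and 0.0379% of the genes and 0.445% together. Among the 43, Cox4i2, Ndufa4l2, Trib3 and Vegfa reached the mean of 1 FPKM needed for testing only through their 12/− libraries, which leaves 39. The mean level of the 43 higher genes rose by 1.69-fold to 10.8-fold, with a median of 2.34-fold, and 31 of them rose by at least 2-fold. For each of these 47 genes the 3 libraries of a genotype did not overlap those of the other. Without a test, 10.2% of all genes had every 12/− library above every +/vg library and 10.5% every one below. In 40 of the 43 higher genes the 12/− libraries also lay above all 12 normal libraries, against 1.91% of all genes, and in 2 of the 4 lower genes, Galt and Frem1, they lay below all 12, against 0.929%. These shares are partly set by the call, because the +/vg libraries are 3 of the 12. Over all genes, 1081 lay above every +/vg library and 202 above all 12. Below them lay 1104 and 98. When 1 of the 6 libraries was left out at a time, 22 to 29 genes were higher and 1 to 4 lower. Of the 43, 19 were called in all 6 fits and 10 in none; since the groups did not overlap, leaving out a library could not turn a direction.

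**Figure D1:**
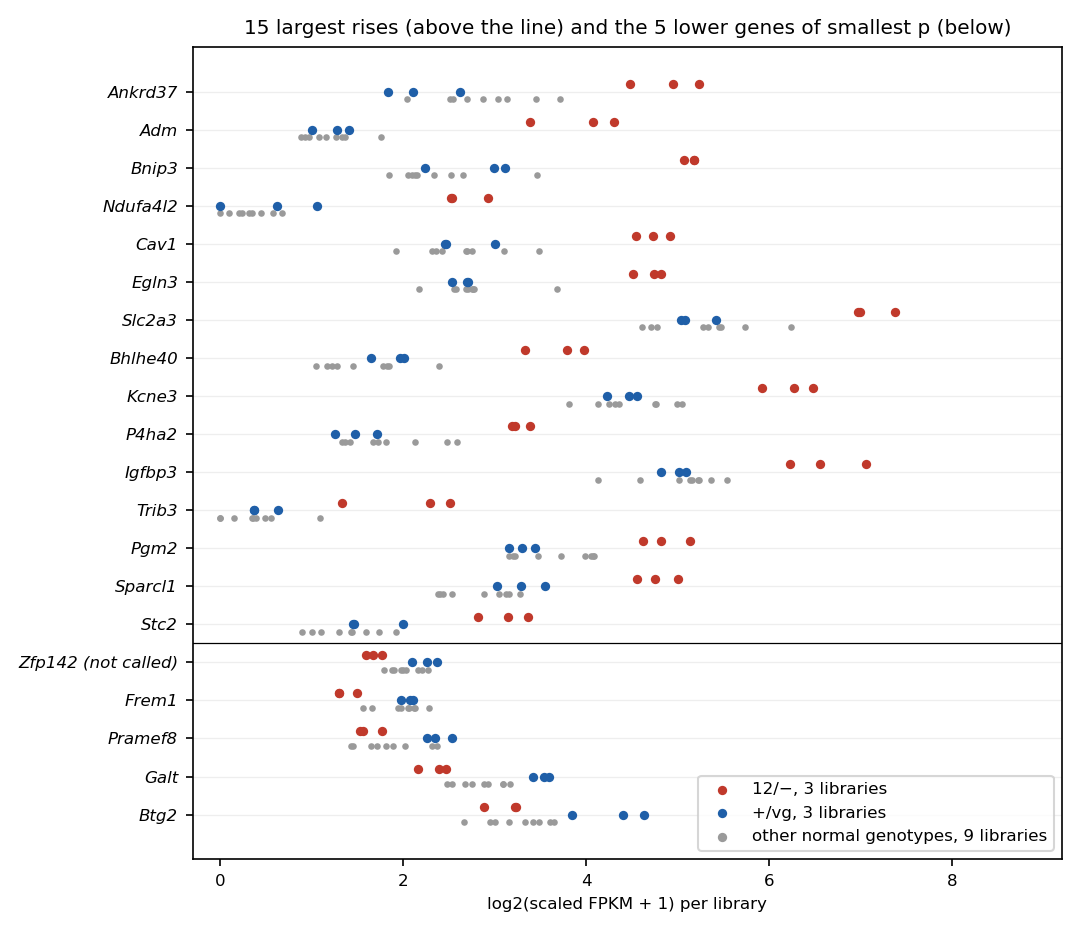
Level of the 15 most increased genes and of the 5 lower genes with the smallest p, as log2(scaled FPKM + 1) on the x axis, with 1 point for each library of 12/−, +/vg and the other normal genotypes. The 3 points of 12/− lie to the right of all others for each of the 15 rises, while Galt, Btg2 and Pramef8 in +/vg lie to the right of most normal libraries.

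The sequences just upstream of several of these genes are printed here because HIF is known to bind DNA at the core words ACGTG and GCGTG. RefSeq promoter windows, from 250 bases before to 50 bases after the start of the gene (build GRCm38.p6), were shown for the 3 largest rises on the log2(FPKM + 1) scale and for the collagen hydroxylase subunit P4ha2 and the glycolytic enzyme Pgk1. Capitals mark ACGTG or GCGTG on either strand, so CACGT and CACGC are the same words read on the other strand, and the E-box word CACGTG counts on both.
Ankrd37, chr8:45999801-46000100, minus strand: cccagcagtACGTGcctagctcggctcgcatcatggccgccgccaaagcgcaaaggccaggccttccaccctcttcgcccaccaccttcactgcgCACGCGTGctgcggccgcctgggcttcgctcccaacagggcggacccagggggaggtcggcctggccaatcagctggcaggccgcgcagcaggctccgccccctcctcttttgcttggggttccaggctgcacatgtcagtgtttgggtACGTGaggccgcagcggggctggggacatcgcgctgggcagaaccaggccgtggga
Adm, chr7:110627407-110627706, plus strand: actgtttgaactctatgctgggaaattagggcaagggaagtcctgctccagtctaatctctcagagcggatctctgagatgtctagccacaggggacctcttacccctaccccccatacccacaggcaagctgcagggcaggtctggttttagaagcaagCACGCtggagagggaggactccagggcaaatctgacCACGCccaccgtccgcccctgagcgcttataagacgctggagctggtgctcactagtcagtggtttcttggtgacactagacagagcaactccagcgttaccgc
Bnip3, chr7:138909457-138909756, minus strand: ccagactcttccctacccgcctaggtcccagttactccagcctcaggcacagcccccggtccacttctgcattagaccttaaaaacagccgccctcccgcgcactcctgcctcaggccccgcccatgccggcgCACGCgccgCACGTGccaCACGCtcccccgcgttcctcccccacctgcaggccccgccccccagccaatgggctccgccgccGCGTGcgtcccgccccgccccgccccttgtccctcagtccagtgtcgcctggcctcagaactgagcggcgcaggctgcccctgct
P4ha2, chr11:54100674-54100973, plus strand: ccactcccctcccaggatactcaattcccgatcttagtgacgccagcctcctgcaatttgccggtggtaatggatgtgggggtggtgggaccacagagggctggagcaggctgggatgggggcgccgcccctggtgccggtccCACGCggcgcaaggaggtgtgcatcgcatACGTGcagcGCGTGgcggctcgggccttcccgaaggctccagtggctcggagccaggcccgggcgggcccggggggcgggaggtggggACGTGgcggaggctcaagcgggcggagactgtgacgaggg
Pgk1, chrX:106186850-106187149, plus strand: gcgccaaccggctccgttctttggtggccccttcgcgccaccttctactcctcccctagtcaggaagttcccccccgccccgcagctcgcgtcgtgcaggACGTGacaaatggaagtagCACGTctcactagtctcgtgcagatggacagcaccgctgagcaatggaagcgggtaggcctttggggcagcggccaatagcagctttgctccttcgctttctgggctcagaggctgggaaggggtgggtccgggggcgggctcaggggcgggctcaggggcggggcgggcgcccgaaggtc

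These windows held 4 matches in Ankrd37, 2 in Adm, 5 in Bnip3, 4 in P4ha2 and 2 in Pgk1. Such words are common: 46.7% of 27025 genes with a promoter in the table, and 69.8% of the 8189 tested genes among them, had at least 1 match in a window of that length. No match was found in the window of Tpi1, which rose as well. A match is a string of letters and does not show that HIF bound there. Windows were found for 30 of the 43 higher genes, too few for a share over the set, and none is given.

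Among the genes that hypoxia is known to raise in mitochondria, autophagy and stress, 9 of 18 tested rose and none fell. Over all genes tested 0.408% were called higher and 0.0379% lower, and the calls in each list below stand against these shares. The median difference was 1.09 on the log2(FPKM + 1) scale against -0.0027 over all genes tested. Of the 9 rises, Cox4i2, Ndufa4l2 and Trib3 reached the mean of 1 FPKM needed for testing only through their 12/− libraries. Their difference was therefore partly set by that filter. Without them 6 of 15 rose and the median was 0.75. Ankrd37, an ankyrin-repeat protein known as a HIF target, was at 29.8, 21.3 and 36.6 FPKM in 12/− and at 2.57, 5.16 and 3.32 in +/vg. Its mean was 7.93-fold higher, a log2 difference of 2.69 ± 0.33 (SE, n = 3 and 3, limma adjusted p = 0.0019). Bnip3, a mitophagy receptor on the outer mitochondrial membrane, was at 35.1, 35.3 and 32.7 in 12/− and at 6.98, 7.65 and 3.70 in +/vg, a 5.63-fold difference (limma adjusted p = 0.0021). In both genes the lowest 12/− library stood above the highest library of every normal genotype.

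Ndufa4l2, which restrains respiratory complex I under hypoxia, was at 6.62, 4.77 and 4.80 FPKM in 12/− and at 1.09, 0.541 and 0 in +/vg, a log2 difference of 2.10 ± 0.25 (limma adjusted p = 0.0019). No fold is given because the +/vg replicate 3 library was listed at 0. Fam162a, a mitochondrial protein linked to hypoxic cell death, was at 144, 166 and 148 in 12/− and at 65.9, 71.1 and 63.0 in +/vg, and its 2.29-fold difference had a limma adjusted p of 0.0011. The further rises in this list were Stc2, a secreted glycoprotein (3.58-fold), Cox4i2, the low-oxygen isoform of a cytochrome oxidase subunit (4.20-fold), Anxa2 (2.01-fold) and the mitophagy receptor Bnip3l (1.71-fold). Trib3, a pseudokinase of the stress response, was at 4.69, 1.51 and 3.91 FPKM in 12/− and at 0.295, 0.291 and 0.546 in +/vg, too low there for a fold to be read. With the filter replaced by detection in at least 3 libraries, the limma adjusted p was 0.0014 for Ndufa4l2, 0.035 for Trib3 and 0.049 for Cox4i2. Ankrd37, Bnip3 and Fam162a were called in each of the 6 fits without 1 library, and Ndufa4l2 in each of the 5 that could test it. The other 5 were each lost in at least 3 of those fits, Anxa2 in all 6 (limma adjusted p from 0.062 to 0.18) and Trib3 in all 3 that could test it (0.081 to 0.18). Stc2 kept its call without +/vg replicate 1, Cox4i2 without +/vg replicate 2 and Bnip3l without +/vg replicate 3, each of them in that fit alone.

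Members of the same list that were not called included Ddit4, an inhibitor of mTORC1 signalling, with 5.46, 5.91 and 10.2 FPKM in 12/− and 1.00, 1.32 and 2.93 in +/vg (log2 difference 1.59 ± 0.39, limma adjusted p = 0.13). The lowest difference of the list was that of Sesn2, -0.07 ± 0.28. Oxidative phosphorylation subunits gave no call in either direction among 26 tested and a median difference of 0.08. Trib3 was also listed with the unfolded protein and integrated stress response. In that list 12 of 14 differences were negative, with a median of -0.14, and none of the 13 members other than Trib3 was called.

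**Figure D2:**
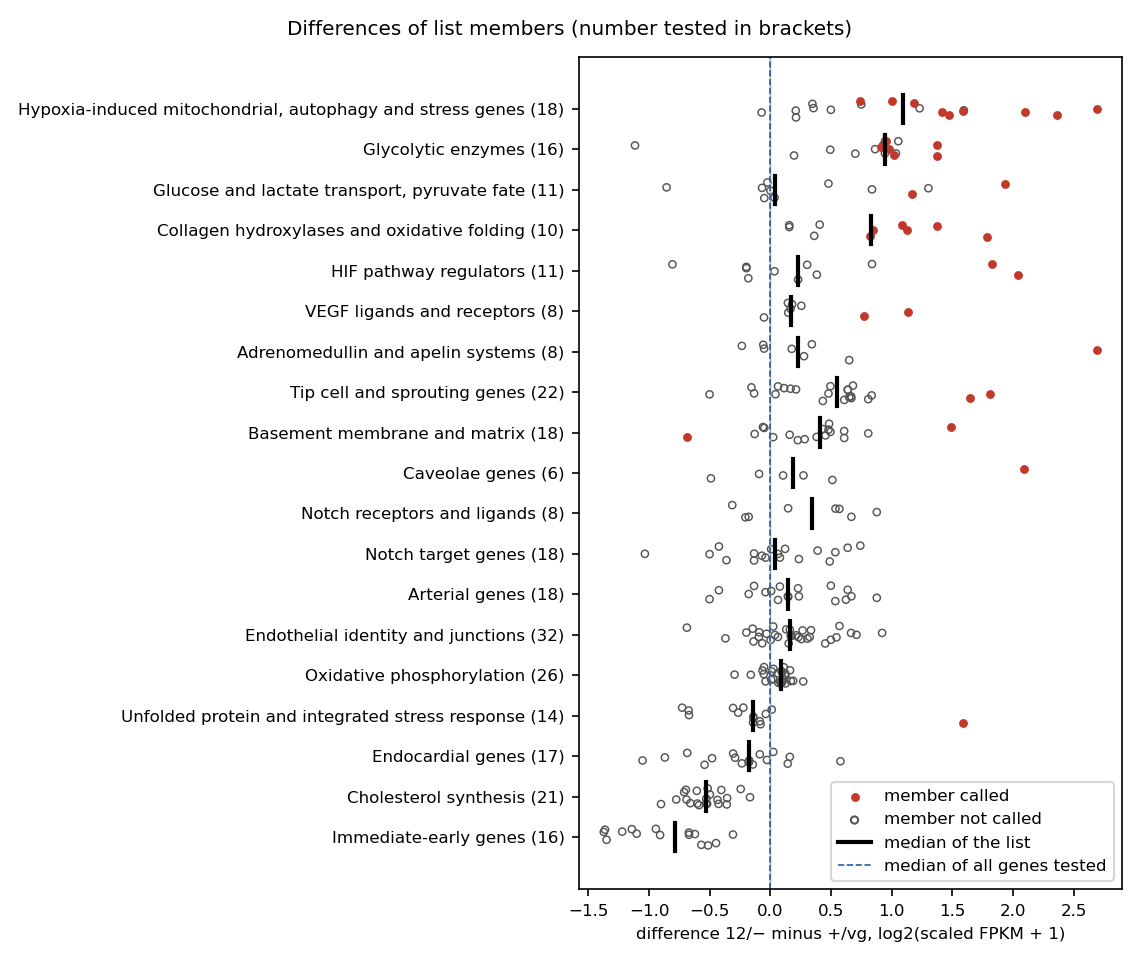
Difference between 12/− and +/vg in log2(scaled FPKM + 1) on the x axis for every tested member of 19 gene lists, with called members filled, the median of each list as a bar and the median of all genes as a dashed line. The hypoxia, glycolysis and collagen lists hold 9, 6 and 6 filled points, with medians of 1.09, 0.95 and 0.83, and no other list shown holds more than 2. The hypoxia list includes Cox4i2, Ndufa4l2 and Trib3, which passed the filter only through 12/−. Without them 6 of 15 were called, with a median of 0.75.

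Of the glycolytic enzymes, 6 of 16 tested rose, against 0.408% of all genes called higher, and none fell. The median difference was 0.95. In 14 of 16 every 12/− library was above every +/vg library, against 10.2% of all genes. Tpi1, triosephosphate isomerase, was at 246, 226 and 196 FPKM in 12/− and at 81.4, 94.9 and 79.8 in +/vg. This 2.61-fold rise had a log2 difference of 1.37 ± 0.16 (limma adjusted p = 0.0019). Pgk1, which makes the first ATP of the pathway, was at 702, 640.4 and 566 in 12/− and at 287, 288 and 176 in +/vg, a 2.54-fold rise (limma adjusted p = 0.043). The +/vg library with the low number, replicate 3, was the lowest of the 3 for Pgk1.

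Aldoa, the aldolase, rose 2.02-fold. Pfkp, the platelet-type phosphofructokinase, rose 2.18-fold and Pfkfb3, which makes the phosphofructokinase activator fructose 2,6-bisphosphate, 2.15-fold. Pkm2, the deposited symbol of pyruvate kinase, rose 1.87-fold. Tpi1 alone among the 6 was called in every fit without 1 library. Aldoa lost its call without 12/− replicate 1 (limma adjusted p = 0.057), Pfkp without 12/− replicates 1 or 2 or +/vg replicate 1 (0.050 to 0.074), and Pfkfb3 in 4 fits, without 12/− replicates 1 or 3 or +/vg replicates 2 or 3 (0.074 to 0.11). Pgk1 and Pkm2 lost theirs without any of the 6 libraries (0.075 to 0.21). Several glycolytic genes have processed pseudogenes, and the handling of reads shared with them is not stated.

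Glycolytic enzymes that did not pass had values on the same side with a single exception. Hk2, a hexokinase, was at 10.7, 9.96 and 8.99 FPKM in 12/− and at 6.16, 5.40 and 2.89 in +/vg (limma adjusted p = 0.24). Ldha, which turns pyruvate into lactate, was at 1090.3, 935 and 1034 against 552, 515 and 413 (limma adjusted p = 0.17). The exception was Ldhb, the isoform that favours the reverse reaction, at 4.98, 5.42 and 4.97 in 12/− and at 17.0, 7.74 and 13.8 in +/vg (log2 difference -1.12 ± 0.39, limma adjusted p = 0.33).

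For glucose and lactate transport and pyruvate fate, 2 of 11 tested genes rose and none fell, with a median of 0.03. Slc2a3, the glucose transporter GLUT3, was at 127, 165 and 124 FPKM in 12/− and at 32.7, 41.9 and 31.8 in +/vg, a 3.91-fold rise (limma adjusted p = 0.011). Slc2a1, the transporter GLUT1, was at 689, 610.2 and 491 against 261, 279 and 246, a 2.28-fold rise (limma adjusted p = 0.027). The other normal libraries reached 505 for Slc2a1, above the lowest 12/− library. Slc2a3 lost its call without 12/− replicate 2 or +/vg replicates 1 or 3 (limma adjusted p from 0.055 to 0.063), and Slc2a1 in 5 of 6 fits, all but that without 12/− replicate 3 (0.079 to 0.17). The lactate exporter Slc16a3 was at 33.9, 31.5 and 24.9 in 12/− and at 12.1, 17.1 and 7.27 in +/vg, and did not pass (limma adjusted p = 0.064). Pdk4, an inhibitor of pyruvate dehydrogenase, had a difference of -0.86 ± 0.22 (limma adjusted p = 0.16).

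**Figure D3:**
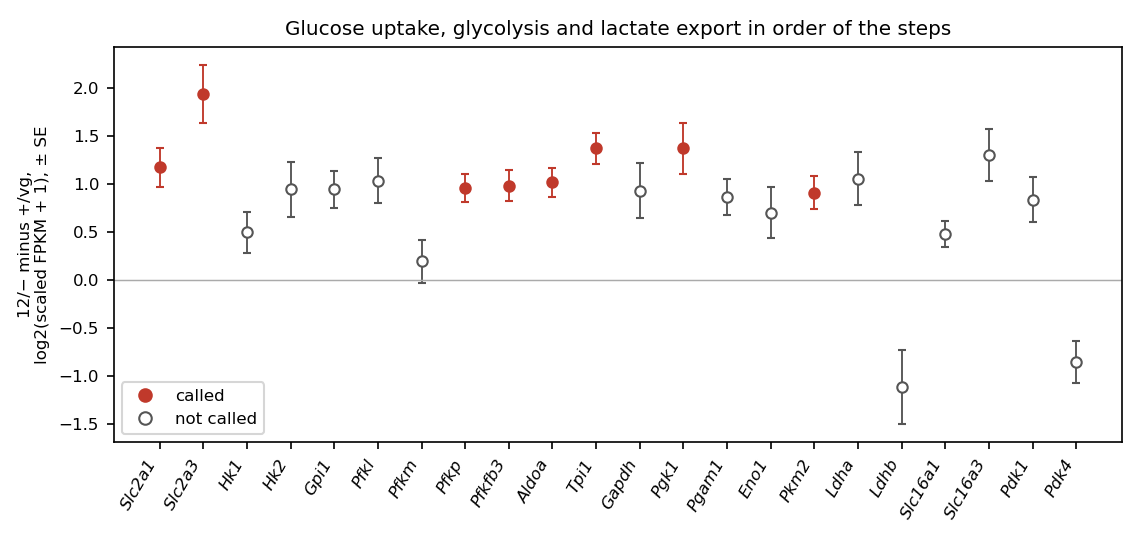
Difference between 12/− and +/vg in log2(scaled FPKM + 1) with its standard error on the y axis. The x axis holds glucose transporters, glycolytic enzymes, lactate transporters and the pyruvate dehydrogenase kinases Pdk1 and Pdk4, in order of the pathway. Called genes are filled, and all values shown are above 0 except those of Ldhb (-1.12) and Pdk4 (-0.86). Not all members of the transport and pyruvate fate list are shown. Over its 11 tested genes, 7 differences were positive and 4 negative.

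Hydroxylases that modify collagen in the endoplasmic reticulum, listed with oxidative folding enzymes and the lysyl oxidase Loxl2, gave 6 rises among 10 tested genes and a median of 0.83. P4ha1, a catalytic subunit of collagen prolyl 4-hydroxylase, was at 19.4, 15.5 and 20.2 FPKM in 12/− and at 6.96, 7.47 and 5.15 in +/vg, a 2.82-fold rise (limma adjusted p = 0.0038). P4ha2, the other such subunit measured, was at 9.48, 8.09 and 8.30 against 2.28, 1.78 and 1.38, a 4.76-fold rise (limma adjusted p = 0.021). Ero1l, the oxidase that feeds disulfide formation, rose 2.34-fold, with 19.5, 18.1 and 16.5 against 7.34, 7.44 and 8.31. The lysyl hydroxylase Plod2 rose 2.35-fold, the lysyl hydroxylase Plod1 1.83-fold and the lysyl oxidase Loxl2 1.84-fold. P4ha1, Ero1l and Plod2 were called in all 6 fits without 1 library, whereas P4ha2, Plod1 and Loxl2 were called in none (limma adjusted p from 0.056 to 0.23). The shared subunit P4hb had a difference of 0.41 and did not pass.

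In the machinery that senses oxygen, Egln3, the hydroxylase PHD3 that marks HIF for destruction and is itself raised by HIF, rose 4.73-fold, from 5.48, 5.53 and 4.81 FPKM in +/vg to 25.8, 21.8 and 27.2 in 12/− (log2 difference 2.04 ± 0.24, limma adjusted p = 0.0019). Bhlhe40, a HIF-induced transcriptional repressor, rose 4.53-fold, with 12.8, 9.10 and 14.7 in 12/− against 3.04, 2.91 and 2.14 (limma adjusted p = 0.0026). Both were called in every fit without 1 library. These were the 2 calls among 11 tested regulators, whose median was 0.23, and -0.01 with the library number range as a covariate. Without overlap 5 of the 11 were higher and 2 lower, against 10.2% and 10.5% of all genes. The lowest difference was that of Cited2, -0.81, which did not pass. Egln1, the hydroxylase PHD2, was at 27.0, 23.7 and 20.2 against 14.4, 14.2 and 10.0 and did not pass (limma adjusted p = 0.057). The mRNA of the HIF subunits themselves did not differ beyond the threshold: Hif1a was at 8.89, 9.78 and 10.2 in 12/− and at 11.6, 10.2 and 11.7 in +/vg, Epas1 had a difference of 0.23 ± 0.21, and Arnt of -0.18 ± 0.18.

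Among secreted vascular signals, Adm, the vasodilator peptide adrenomedullin, had the largest rise by the ratio of means, 10.8-fold, from 1.42, 1.65 and 1.00 FPKM in +/vg to 18.8, 9.48 and 15.8 in 12/− (log2 difference 2.69 ± 0.24, limma adjusted p = 0.00054). It was called in all 22 alternatives that tested it. Its receptor Calcrl and the receptor partners Ramp2 and Ramp3 had differences of 0.34, 0.18 and 0.28 and did not pass. Vegfa, the main vascular growth factor, was at 3.26, 2.22 and 3.93 in 12/− against 0.860, 0.907 and 0.786, a 3.69-fold rise (limma adjusted p = 0.019), and it too reached a mean of 1 FPKM only through the 12/− libraries. Flt1, the receptor VEGFR1 that also serves as a decoy, was at 51.3, 48.6 and 45.3 against 29.6, 28.0 and 26.1, a 1.74-fold rise (limma adjusted p = 0.043). Vegfa lost its call in 5 of 6 fits, all but that without 12/− replicate 2 (limma adjusted p from 0.064 to 0.12), and Flt1 in all 6 (0.10 to 0.21). With these 2, 2 of 8 VEGF ligands and receptors rose, or 1 of 7 without Vegfa. The signalling receptor Kdr was not called, with 104, 89.1 and 83.5 against 76.3, 77.9 and 75.8 (limma adjusted p = 0.52).

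Tip cell and sprouting genes gave 2 rises among 22 tested and a median of 0.55. The groups did not overlap for 13 genes, all higher in 12/−, against 10.2% of all genes. Kcne3, an accessory subunit of potassium channels, was at 88.1, 59.8 and 76.3 FPKM in 12/− and at 17.7, 21.1 and 22.5 in +/vg, a 3.66-fold rise called in all 6 fits without 1 library (limma adjusted p = 0.0019). Igfbp3, an IGF-binding protein, was at 133, 73.9 and 93.3 against 33.0, 31.2 and 27.2, a 3.28-fold rise (limma adjusted p = 0.040) that was lost in all 6 (0.054 to 0.21). Esm1, Nid2, Apln, Pdgfb and Dll4 had differences of 0.84, 0.81, 0.65, 0.64 and 0.67 and did not pass.

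At the cell surface and in the matrix, Cav1, the main coat protein of endothelial caveolae, was at 29.2, 22.4 and 25.6 FPKM in 12/− and at 4.48, 4.54 and 7.02 in +/vg, a 4.81-fold rise (limma adjusted p = 0.0019). It was the single call among 6 caveolae genes, whose median was 0.19. Its log2 difference was 2.09, and 1.60 with the library number range as a covariate. Sparcl1, a secreted matricellular protein, was at 31.1, 22.5 and 26.0 against 8.77, 7.14 and 10.7, a 2.99-fold rise (limma adjusted p = 0.0028). Frem1, a protein of embryonic basement membranes, fell to 1.46, 1.45 and 1.82 from 3.21, 3.30 and 2.93, with a 1.99-fold higher mean in +/vg (limma adjusted p = 0.038), and lost its call in all 6 fits without 1 library (0.075 to 0.18). Across 18 matrix genes these were the 2 calls, and the median was 0.41. Of the 18, 10 were higher without overlap, against 10.2% of all genes.

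Some called genes act in sugar metabolism outside glycolysis, and these lay in both directions. They were grouped after their calls were known, and no list of such genes was set beforehand. Galk1, the kinase that opens galactose use, rose 1.88-fold, with 96.9, 91.3 and 80.8 FPKM in 12/− and 51.8, 45.1 and 46.5 in +/vg (limma adjusted p = 0.0039). Galt, the uridylyltransferase of the next step, fell to 3.49, 4.24 and 4.53 from 11.1, 9.66 and 10.7, with a 2.56-fold higher mean in +/vg (log2 difference -1.18 ± 0.17, limma adjusted p = 0.0056). Both were called in all 6 fits without 1 library. Pgm2, a phosphoglucomutase, rose 3.18-fold (limma adjusted p = 0.033) and was lost in all 6 (0.077 to 0.18).

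Further calls fell outside these lists. Eif4ebp1, a repressor of translation, rose 1.89-fold, and St3gal1, a sialyltransferase, 1.91-fold, and both were called in all 6 fits without 1 library. Odc1, which opens polyamine synthesis, rose 1.81-fold, Cxxc5, a zinc-finger protein, 1.74-fold, Eltd1, an endothelial adhesion receptor, 1.69-fold, and Fxyd6, a regulator of the sodium pump, 1.93-fold. These 4 were lost in 3 to 5 of the 6 fits: Odc1 was called only without 12/− replicate 2, as was Cxxc5, Eltd1 only without +/vg replicate 3, and Fxyd6 without 12/− replicates 2 or 3 or +/vg replicate 2. Their limma adjusted p in the other fits was 0.056 to 0.21.

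The Notch genes themselves were checked against the labels. Notch1 (chromosome 2, 26313421 to 26359342 in mm9 as deposited) was at 19.7, 16.2 and 15.4 FPKM in 12/− and at 23.2, 20.6 and 20.5 in +/vg, a log2 difference of -0.31 ± 0.15 (limma adjusted p = 0.50). Notch2 was at 4.12, 4.38 and 3.40 against 2.91, 2.10 and 2.26, a difference of 0.54 ± 0.15 (limma adjusted p = 0.18). Neither passed, although neither pair of groups overlapped. The other genotypes with a 12 allele had like levels: the mean of Notch2 was 4.19 ± 0.26 (SD, n = 3) in +/12, and the 12/vg library was at 4.28, whereas the means of +/+ and +/− were 2.96 ± 0.32 and 2.66 ± 0.65. Notch1 was at 15.5 ± 0.91 in +/12 and at 20.5 ± 2.9 in +/+. Whether reads of the exchanged segment were counted under Notch2 was not tested, and the files hold no exon-level values for the deleted copy.

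No Notch receptor or ligand among 8 tested and no Notch target among 18 was called in 12/− against +/vg. Over all 10550 genes, the unadjusted p from limma was under 0.05 for 548 higher and 509 lower ones. It was so for 5 of the 8 receptors and ligands, Notch1, Notch2, Notch4, Dll4 and Jag2, and for 5 of the 18 targets, Hes1, Nrarp, Efnb2, Ccnd1 and Acvrl1. Jag2, a ligand, was at 9.34, 6.47 and 6.30 FPKM against 3.55, 3.05 and 3.93 (difference 0.88 ± 0.25, limma adjusted p = 0.22). Dll4, the ligand of tip and arterial cells, was at 17.6, 9.83 and 11.0 against 8.25, 8.77 and 5.70 (0.67 ± 0.27, limma adjusted p = 0.41).

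Notch targets lay on both sides of 0, with a median of 0.03. Hes1, a repressor switched on by Notch, was at 23.4, 20.6 and 18.9 FPKM in 12/− and at 43.2, 55.9 and 34.6 in +/vg, without overlap (difference -1.03 ± 0.27, limma adjusted p = 0.15). Nrarp, a target that feeds back on Notch, was at 17.9, 11.5 and 10.4 against 6.71, 6.75 and 8.63 (0.74 ± 0.18, limma adjusted p = 0.13). Hey1 and Hey2, further repressors of this family, had differences of -0.04 ± 0.32 and 0.01 ± 0.22, and the arterial targets Gja5, Gja4 and Efnb2 of -0.13, 0.24 and -0.50. Among 18 arterial genes 7 were higher without overlap, against 10.2% of all genes, 0 lower, and none was called. This was not particular to arterial genes: of the 32 endothelial markers, 12 were higher without overlap, 0 lower, and none was called.

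**Figure D4:**
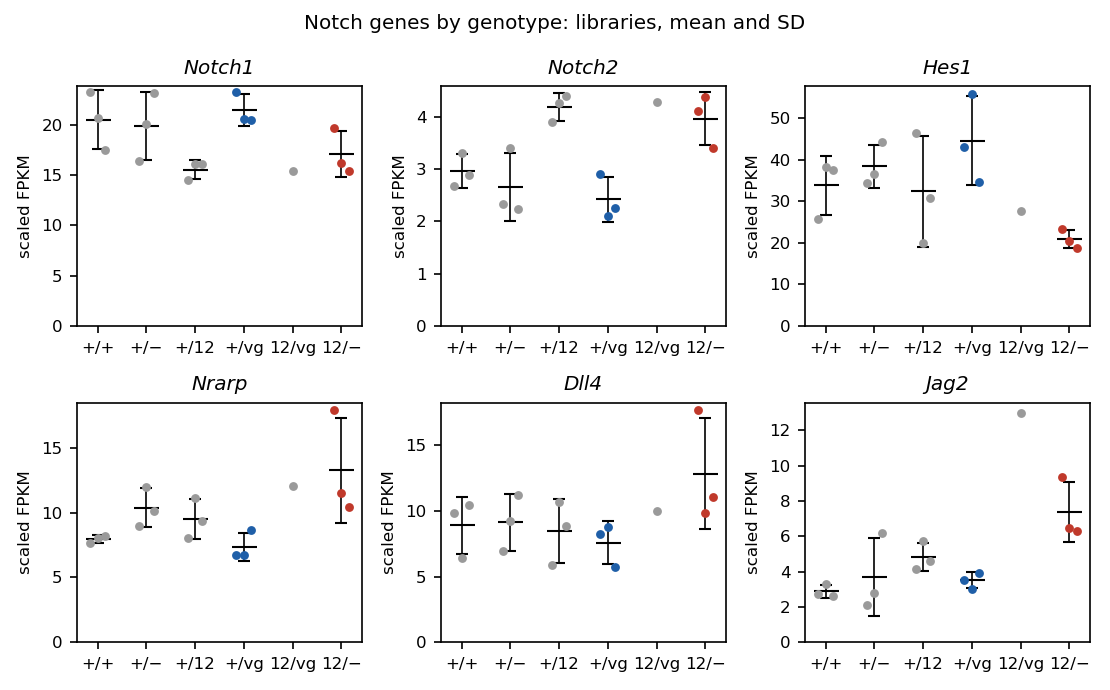
Scaled FPKM on the y axis of Notch1, Notch2, Hes1, Nrarp, Dll4 and Jag2 in each library of the 6 genotypes on the x axis, with mean and SD bars for groups of 3. Notch2 lies higher in +/12, 12/vg and 12/− than in +/vg, and the 3 points of Hes1 in 12/− lie below the 3 of +/vg.

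The level in +/vg was set against the mean of the other normal genotypes, a contrast that shares the +/vg libraries with the main comparison but uses no 12/− library. No gene passed there (limma, 0% of 10550, with unadjusted p under 0.05 for 378 higher and 215 lower genes). Of the 47 genes called in 12/− against +/vg, 11 had an unadjusted p under 0.05. The smallest belonged to Gngt2 and Ppap2c, which were singled out after their values were seen.

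Gngt2, a G protein γ subunit, was at 77.5, 90.0 and 93.9 FPKM in 12/− and at 34.8, 43.3 and 46.1 in +/vg, a 2.11-fold rise (limma adjusted p = 0.0019). The 9 other normal libraries lay between 61.3 and 77.4 with a median of 70.4, so +/vg was below each of them, by 0.76 ± 0.11 on the log2 scale (limma adjusted p = 0.055). Ppap2c, a lipid phosphate phosphatase, was at 13.9, 13.9 and 14.3 against 6.33, 6.64 and 5.07, a 2.33-fold rise (limma adjusted p = 0.0022), and the other normal libraries at 8.88 to 15.3 overlapped 12/− and not +/vg. Its difference of +/vg from them was -0.80 ± 0.12 (limma adjusted p = 0.055). Over the alternative settings, 0 to 2 genes passed in this contrast.

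Lrrc32, a surface protein that binds latent TGF-β, was at 35.2, 30.3 and 39.7 in 12/− and at 17.3, 17.5 and 17.7 in +/vg, and between 21.9 and 31.4 in the other normal libraries. These other libraries overlapped 12/− and not +/vg. For Galt, the other normal libraries lay between 4.56 and 7.96, below each +/vg library and above each 12/− library. Pramef8, of a family of near-identical genes whose read assignment is uncertain, was at 2.41, 1.88 and 1.94 in 12/−, at 4.78, 4.10 and 3.80 in +/vg and from 1.69 to 4.15 elsewhere (limma adjusted p = 0.025 for 12/− against +/vg), and lost its call in 5 of 6 fits, all but that without 12/− replicate 1 (0.055 to 0.15).

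Btg2, an antiproliferative gene of the rapid response to stimuli, was at 8.35, 6.36 and 8.40 in 12/− and at 20.1, 23.8 and 13.4 in +/vg (limma adjusted p = 0.040). The other normal libraries were at 5.36 to 11.6, which overlaps 12/− and not +/vg, and +/vg exceeded their mean by 1.04 ± 0.18 on the log2 scale (limma adjusted p = 0.27). Its call in 12/− against +/vg was lost in 5 of 6 fits, all but that without +/vg replicate 3 (0.10 to 0.19).

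Immediate-early genes, which cells switch on within minutes of a stimulus, gave the same side as Btg2. None of 16 tested was called, the median difference of 12/− from +/vg was -0.79, and 15 of 16 values were negative. Of the 16, 8 were lower without overlap, against 10.5% of all genes. All 16 were higher in +/vg than in the mean of the other normal genotypes, with a median of 0.95 and an unadjusted p under 0.05 for 12 of 16, but none passed. Fos, the founding member, named after its values were seen, was at 20.8, 14.2 and 9.44 FPKM in 12/−, at 39.3, 44.0 and 31.4 in +/vg and from 12.1 to 32.8 in the other normal libraries (12/− minus +/vg -1.36 ± 0.34, limma adjusted p = 0.14). Ier3 had the largest positive value, 1.14 ± 0.47, and Egr3 the lowest, -1.37 ± 0.54.

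**Figure D5:**
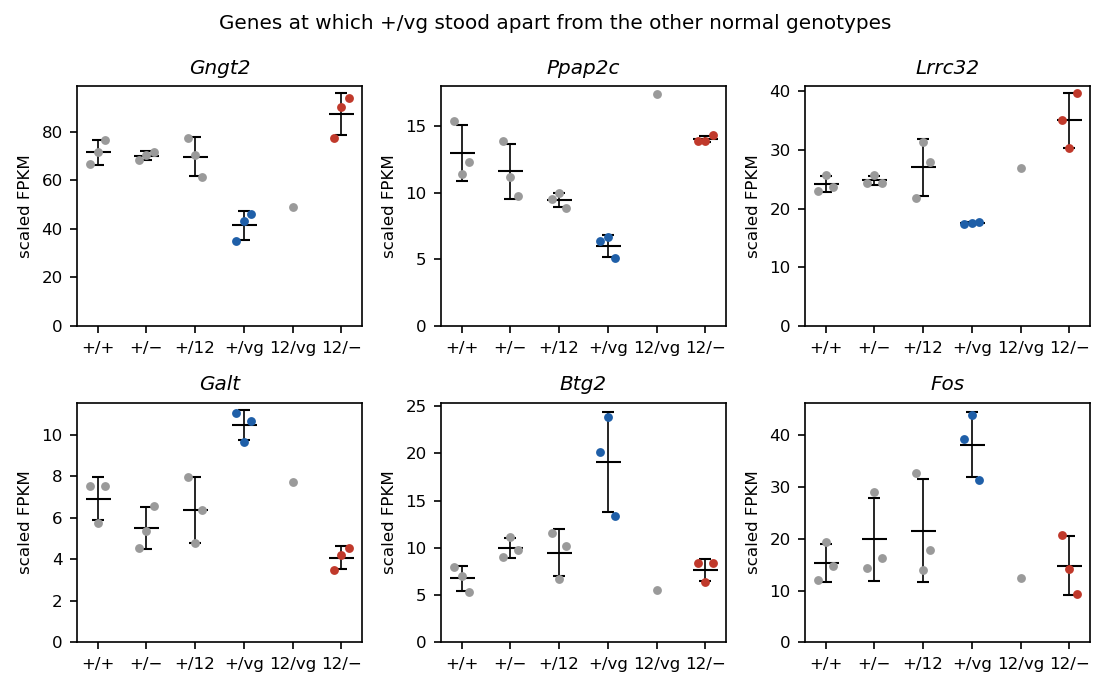
Scaled FPKM on the y axis of Gngt2, Ppap2c, Lrrc32, Galt, Btg2 and Fos in each library of the 6 genotypes on the x axis, with mean and SD bars for groups of 3. The +/vg points lie below all other normal libraries for Gngt2, Ppap2c and Lrrc32 and above all of them for Galt and Btg2, whereas 1 normal library reaches into the +/vg range for Fos.

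For the hypoxia genes, differences of +/vg from the other normal genotypes were small in the median. The median difference of +/vg from their mean was 0.10 over the 18 mitochondrial, autophagy and stress genes, -0.01 over the 16 glycolytic enzymes and -0.07 over the 10 collagen and folding genes. It was -0.06 over the 11 glucose and lactate transport and pyruvate fate genes. Adm, Egln3, Cav1 and Tpi1 differed by 0.03, -0.10, 0.01 and 0.06, and Ankrd37 by -0.70 ± 0.27 (limma adjusted p = 0.82). Single genes stood further off: Ankrd37, Pfkp, Slc2a1 and the matrix gene Sparcl1 were among the 11 called genes with an unadjusted limma p under 0.05 in this contrast.

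The 12/vg library, which had a depth of 0.262 gigabases and no replicate, was set beside these values. It lay above all 3 +/vg libraries for 31 of the 43 higher genes, against 33.5% of all genes tested, and above all 12 normal libraries for 19 of 43, against 13.7%. The 43 were called on these same +/vg libraries, so a share above that of all genes is partly expected for any further library. The excess was not tested. Ankrd37 was at 15.7 FPKM, Kcne3 at 47.8 and Tpi1 at 136, each between the ranges of the normal and the 12/− libraries. Ndufa4l2 was listed at 0, and Cav1 at 7.99 and Bnip3 at 7.78 stayed within the normal range. It reached the 12/− range for Fxyd6, Ppap2c and Slc2a1.

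Since library numbers partly separate the groups, the comparison was repeated with the number range as a covariate and within the low range. With the covariate, all 43 higher genes kept their sign and 27 their call, the list medians were 0.99 for the mitochondrial and stress genes, 1.02 for glycolysis and 0.81 for collagen and folding, and 5, 6 and 4 members were called. In the low range +/vg is a single library whose spread was taken from the other groups. The list medians were 0.96, 1.07 and 0.91, and signs could not turn for genes without overlap. Of the 43, Adm, Ndufa4l2 and Ppap2c were called, and the split over all genes was 7 higher and 21 lower. With the covariate the split was 32 and 6. Without the 2 shallow libraries, +/− replicate 2 and 12/vg, the 3 lists had 11, 9 and 6 rises. In all these settings the mitochondrial and stress list still held Cox4i2, Ndufa4l2 and Trib3, which passed the filter only through 12/−.

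Leaving out a single library lowered the counts of these lists. The mitochondrial and stress genes had 3 rises among 16 members tested without 12/− replicate 1, and 4 among 17 without 12/− replicate 2 or 3. They had 5 among 18 without any 1 of the +/vg libraries. Trib3 fell below the filter without any 12/− library, and Ndufa4l2 without 12/− replicate 1, so these were not tested there rather than lost. Glycolysis had 1 rise, Tpi1, without 12/− replicate 1 and 3 without any other library. Collagen and folding genes had 3 rises in each case. The list medians in those fits ranged from 0.80 to 1.11, from 0.85 to 1.01 and from 0.75 to 0.91.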

How the data were processed

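The files hold 1 cufflinks table per library, with FPKM and coverage for 28107 transcripts of 22096 gene symbols. The submitters' processing notes name TopHat2 2.0.9 as aligner and mm9 as genome build. Cufflinks settings are not given in the sources. FPKM, normalized by the authors to transcript length and library size, is the deposited expression value, and no read counts were used. The median ratio of deposited coverage to FPKM, over transcripts above a low FPKM floor, was the only measure of depth. Transcript FPKM were summed per symbol, and 211 symbols without an OK quantification status in every library were left out (87 of them with a mean of at least 1). Libraries were scaled by the median ratio over 8610 genes, and log2(FPKM + 1) of the 10550 genes with a mean of at least 1 entered a linear model in limma 3.58.1 (R 4.3.3) over all 16 libraries in 6 groups, with trended moderation. The fit had 10 residual degrees of freedom. Calls have a Benjamini-Hochberg adjusted p under 0.05 over all tested genes. Fold changes on the log2(FPKM + 1) scale understate those of low genes, so ratios of group means are printed as folds. The standard error follows ± after a log2 difference.

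Named were Notch1 and Notch2, the 15 largest called rises without overlap (predicted genes, pseudogenes, small RNAs and sex-marking genes left out), the 5 lower genes with the smallest p, up to 4 called members of each list by adjusted p, the extreme members of a list without calls, and members of the HIF regulator and Notch lists. All other genes were named after their values were seen. The fifth lower gene, Zfp142, did not pass (difference -0.57, limma adjusted p = 0.064). The members and lists were chosen with earlier results of these data known. Replicates were numbered in accession order. In simulated data of 10426 genes, 78 of 100 changes of 1 on the log2 scale and 92 of 100 changes of 2 were recovered for 12/− against +/vg, with 9 false calls. The changes were placed only in genes with a mean log2(FPKM + 1) above 2, with independent noise. Recovery in lower genes, such as Vegfa and Ndufa4l2, and effects shared by a library were not covered. The 341 tested genes without a transcript of 300 nt have unstable FPKM. Promoter sequences come from RefSeq (GRCm38.p6), a build other than that of the files, and were matched by symbol. Alternatives covered scaling, pseudocount, filters, moderation, weights, library numbers and each of the 6 libraries. Tables were handled with pandas 2.3.3 in Python 3.11.15.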

Additional observations from a re-analysis of the deposited data

How the results depend on the processing

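Of the 47 genes called in 12/− against +/vg, all 47 were also among the 183 called with array weights (131 higher, 52 lower) and the 95 called without the 2 shallow libraries (79 higher, 16 lower). Within the low library numbers 28 were called (7 higher, 21 lower), of which 3 were shared, and leaving out 1 of the 6 libraries gave 26 to 30. The cause of these differences was not tested, except that the last 2 settings use fewer libraries. The other settings gave 35 to 70 calls: 35 with quantile normalization, 50 without scaling, which moved the median of all genes by 0.083, 38 with the library number range as a covariate (28 shared), 51 with the 6 libraries alone (42 higher, 9 lower, 30 shared), 61 with robust moderation and 70 without genes lacking a transcript of 300 nt. For +/vg against the other normal genotypes, where 0 genes passed (limma), 2 passed with quantile normalization, with a pseudocount of 0.1 or 0.5, with either other filter on low values over all libraries (detection in 3 libraries, mean of 5), without short-transcript genes, with array weights and with the covariate, and 1 without +/vg replicate 2. Over the named genes, 887 values stayed on their side of the threshold, 243 lost their call and 3 gained one. No paired analysis was possible because the labels give no replicate numbers that tie libraries of different groups together. Depth of single genes is unknown in FPKM, so no counting error is given, and levels near 0 are listed values only.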

Other observations

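Genes of cholesterol synthesis were lower in 12/− than in +/vg in the sign of all 21 tested, with a median of -0.53 on the log2(FPKM + 1) scale. Of these, 14 did not overlap, against 10.5% of all genes lower without overlap, but none passed the test (limma). Nsdhl, an enzyme that removes a methyl group from sterols, had the lowest value: 4.17, 7.16 and 8.60 FPKM in 12/− against 11.4, 12.0 and 15.3 in +/vg (difference -0.90, limma adjusted p = 0.18). All 21 were also higher in +/vg than in the mean of the other normal genotypes, with a median of 0.20, and 2 had an unadjusted p under 0.05. Both comparisons share the +/vg libraries.

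Endocardial genes and genes of the endothelial-to-mesenchymal transition of the heart cushions gave no call among 17 and 15 tested. Has2, which makes the hyaluronan of the cardiac jelly, was at 1.51, 0.878 and 1.72 FPKM in 12/− and at 3.51, 3.59 and 3.34 in +/vg (difference -0.94, limma adjusted p = 0.092). Cdh11, a mesenchymal cadherin, had a difference of -1.05 (limma adjusted p = 0.26), and Smad6, an inhibitor of BMP signalling, of 0.58. The lymphatic regulator Prox1 was lowest among 9 venous and lymphatic genes, at -1.12 (limma adjusted p = 0.25). Of 9 interferon-stimulated genes 4 were lower without overlap, against 10.5% of all genes, with a list median of -0.38 and no call.

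Igfbp2, an IGF-binding protein, was at 71.6, 60.6 and 62.1 FPKM in 12/− and at 21.9, 24.1 and 16.9 in +/vg and did not pass (difference 1.59, limma adjusted p = 0.22). The embryonic globin Hbb-bh1 varied within 12/−, at 35.1, 96.3 and 188, against 18.2, 33.6 and 12.4 in +/vg, and was not called.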
